A study of Mus musculus with 8 samples.

Results

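The GABA-A receptor subunit genes described here are Gabrd (delta subunit), Gabra2, Gabra3, Gabra4 and Gabra5 (alpha subunits) and Gabrb1 and Gabrb2 (beta subunits). They were chosen by symbol and make up 7 of the 55341 gene symbols counted in each library. A further 9 subunit genes are given from a separate list, and subunits outside these lists were not analysed here.

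GABA-A receptors are chloride channels built from several subunits around a central pore, and they carry most fast inhibition in the cortex. Receptors with the alpha2 or alpha3 subunit and a gamma subunit sit mainly at synapses and give brief currents. Receptors with the delta subunit, in the forebrain often beside alpha4, and receptors with alpha5 lie mainly outside synapses. They respond to low levels of ambient GABA with a steady (tonic) current, and delta-containing receptors are known for their sensitivity to neurosteroids. Beta subunits are shared by receptors of both kinds.

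The libraries hold RNA of sorted nuclei from GABAergic neurons, the inhibitory neurons of the cortex, and all mice were hypothyroid. The PTU group (mice 9 to 12, n = 4) were juveniles whose mothers received propylthiouracil in pregnancy, which blocks the synthesis of thyroid hormone (TH). The PTU+TH group (mice 13 to 16, n = 4) had the same treatment and an intraperitoneal injection of TH 24 h before the brain was taken. Both groups carried a Cre-dependent nuclear fluorescent reporter used to sort the nuclei, and mice without propylthiouracil were not analysed here. The labels used here do not give the Cre driver line, the age in days, the sex or the litter, and each library came from 1 cortex.

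Library totals lay between 21762810 and 29084071 counts. The 9 listed markers of GABAergic neurons summed to 3188 to 4670 CPM (counts scaled to library size) in PTU and to 3403 to 4377 CPM in PTU+TH, with Dlx1 and Dlx6 listed at 0. Whether these values of 0 came from the way of counting described below was not tested. The 8 listed markers of striatal GABAergic neurons summed to 491 to 930 CPM in PTU and 513 to 798 CPM in PTU+TH. The source of these striatal marker reads was not tested. The 10 excitatory neuron markers summed to 44.6 to 127 CPM and 53.9 to 165 CPM, and the 8 astrocyte markers to 292 to 364 CPM and 298 to 536 CPM. Whether these reads came from other cells or from the sorted neurons was not tested. The libraries of PTU+TH mice 15 and 16 had 0 counts of 4 Y-linked genes and the other 6 libraries had 7960 to 11548. Y-linked counts were thus present in all PTU libraries but not in all PTU+TH libraries, and the main test has no term for this. Of 17355 genes tested, 368 (2.12%) were called different between the groups by edgeR's quasi-likelihood test (Benjamini-Hochberg adjusted p below 0.05), 1.49% of all genes higher and 0.634% lower in PTU+TH, and the median log2 fold change of all tested genes was -0.01. An unadjusted p under 0.05 was reached by 2214 genes (12.8%), the share to hold beside each such count in a gene list. DESeq2, run as an alternative, called 756 of the 16345 genes to which it gave an adjusted p (4.63%).

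Most of the subunit genes lie in clusters (build GRCm38, GENCODE M21). Gabra2 (chromosome 5, 70957597 to 71095849, minus strand), Gabra4 (71569749 to 71658308, minus strand) and Gabrb1 (71658113 to 72149037, plus strand) are neighbours on chromosome 5, and Gabra4 and Gabrb1 start head to head with 196 bases in common. Gabra5 lies on chromosome 7 (57407672 to 57510059), Gabrb2 on chromosome 11 (42419757 to 42629028) and Gabra3 on the X chromosome (72432681 to 72656848). Gabrd lies on chromosome 4 (155384980 to 155398112) and is the shortest of the 7, with a body of 13.1 kb against 491 kb for Gabrb1. The counting covered whole gene bodies, introns included: all 819 protein-coding genes that lie within another gene without touching its exons were at 0 in all libraries, against 21.5% of 11727 genes that overlap no other gene. Reads in stretches shared by 2 genes were thus dropped. This matters for Gabra5, of which 90.5% is shared with genes of the opposite strand, so that its counts come from 9.75 kb. The other 6 share at most 4.26% of their bodies.

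Promoter sequences from RefSeq (build GRCm38.p6, 250 bases before to 50 after a start) were matched for 6 of the 7 members, with 10 starts in all. Gabrd was not among them. The 4 below are shown because they set a start of each of the 3 chromosome 5 neighbours beside a start of Gabra3, the other mainly synaptic alpha subunit. They lie at chr5:71095800-71096099 (Gabra2, minus strand), chr5:71658259-71658558 (Gabra4, minus strand), chr5:71657671-71657970 (Gabrb1, plus strand) and chrX:72656870-72657169 (Gabra3, minus strand), and capitals mark the dinucleotide CG, which reads the same on both strands.
Gabra2: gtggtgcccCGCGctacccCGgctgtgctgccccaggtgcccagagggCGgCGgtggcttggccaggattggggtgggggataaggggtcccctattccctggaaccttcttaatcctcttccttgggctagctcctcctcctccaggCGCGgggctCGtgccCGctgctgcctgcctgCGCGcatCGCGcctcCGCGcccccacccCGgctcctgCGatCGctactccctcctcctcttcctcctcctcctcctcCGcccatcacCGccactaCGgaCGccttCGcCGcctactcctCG
Gabra4: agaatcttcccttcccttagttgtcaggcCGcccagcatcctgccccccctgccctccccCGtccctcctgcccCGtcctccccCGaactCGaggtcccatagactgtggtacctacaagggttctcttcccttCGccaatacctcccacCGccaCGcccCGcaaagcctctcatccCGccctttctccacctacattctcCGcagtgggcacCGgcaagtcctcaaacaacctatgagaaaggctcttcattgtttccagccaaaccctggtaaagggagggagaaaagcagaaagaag
Gabrb1: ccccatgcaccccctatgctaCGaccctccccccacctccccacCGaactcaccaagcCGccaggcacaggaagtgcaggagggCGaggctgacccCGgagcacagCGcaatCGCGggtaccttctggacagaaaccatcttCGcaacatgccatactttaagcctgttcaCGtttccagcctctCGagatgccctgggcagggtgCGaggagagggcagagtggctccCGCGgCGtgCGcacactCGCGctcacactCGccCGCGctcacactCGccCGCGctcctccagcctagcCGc
Gabra3: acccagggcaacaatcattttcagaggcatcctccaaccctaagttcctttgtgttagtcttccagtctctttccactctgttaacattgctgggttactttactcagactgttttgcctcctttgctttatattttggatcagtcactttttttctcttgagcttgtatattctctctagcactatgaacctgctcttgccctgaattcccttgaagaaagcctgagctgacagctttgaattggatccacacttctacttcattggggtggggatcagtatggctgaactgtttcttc
Gabra2 and Gabrb1 held 25 CG each, a number that 18.4% of the 32851 promoters in the table reach, and Gabra4 held 12, a number that 39.6% reach. The Gabra3 window held 0, as do 5.43% of all promoters. Of the windows not shown, the other Gabra3 start held 0, the other Gabrb1 start 9, Gabra5 13 and the 3 Gabrb2 starts 9 to 11, beside a median of 7 over all promoters. The hexamer AGGTCA, the half-site of TH receptor binding, was searched on both strands. It was in none of the 10 member windows and in 16.3% of all promoters. The same hexamer repeated in 1 direction with any 4 bases between was in 5 promoters of the table and in none of the member windows. The search says only which letters these windows hold.

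The delta subunit gene stood apart from the other members in the comparison of the groups. Its level was 39.3, 43.1, 31.0 and 35.1 CPM in PTU mice 9 to 12 against 97.3, 106, 98.8 and 89.7 CPM in PTU+TH mice 13 to 16, the order kept for all genes that follow. Every PTU+TH library lay above every PTU library. Gabrd rose 2.63-fold (log2 fold change 1.40, SE 0.11, 95% interval 1.17 to 1.63, edgeR adjusted p = 1.67e-05) on raw counts of 627 to 1146 per PTU library and 1885 to 3080 per PTU+TH library. By edgeR 1 of the 7 members was called, against 2.12% of all genes tested. DESeq2 called 2, Gabrd and Gabra2, against 4.63% of the genes to which it gave an adjusted p. Gabrd was also the only member whose groups did not overlap. Of all genes 8.71% had groups without overlap, 4.68% with the higher values in PTU+TH and 4.03% with the lower. In sorted nuclei that are sequenced in bulk, more RNA per cell and more cells of a type that expresses the gene cannot be told apart.

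Gabrd is known as a marker of neurogliaform cells and is also expressed by excitatory neurons, so the markers of these cells are given beside it, followed by those of the other interneuron classes. Of 8 markers of the LAMP5 class, which holds the neurogliaform cells, 0 were called by edgeR (2 at an unadjusted p under 0.05, 4 above and 4 below 0), while DESeq2 called 1, Ndnf, with lower values in PTU+TH. Their summed level was 1398 to 1488 CPM in PTU and 1200 to 1403 CPM in PTU+TH, of which Reln alone averaged 1021 and 875 CPM, so the sum says little of the other 7 markers. Of 9 tested excitatory markers 0 were called by edgeR, DESeq2 or at an unadjusted p under 0.05, with 8 values above 0 and 1 below. Their summed levels overlapped, and with their mean as a covariate the log2 fold change of Gabrd was 1.39 (edgeR adjusted p = 1.11e-05). In the 6 libraries with Y-linked counts it was 1.45 (adjusted p = 0.00186).

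Single markers of other interneuron classes were called beside Gabrd. Of 7 markers of the PV class, 5 had values above 0 and 1 was called higher, Syt2, at 8.38 ± 2.32 CPM in PTU and 18.5 ± 2.40 in PTU+TH (SD, n = 4 each; edgeR adjusted p = 0.00603). Of 8 SST class markers, 3 were above 0 and 1 was called lower, Calb1, at 198 ± 22.7 and 120 ± 12.3 CPM (edgeR adjusted p = 0.00328). Of 7 VIP class markers, 2 were above 0 and 1 was called lower, Htr3a, at 7.82 ± 2.38 and 3.63 ± 0.90 CPM (edgeR adjusted p = 0.0344), and DESeq2 called 2, Chat beside Htr3a. The VIP markers summed to 354, 277, 234 and 261 CPM in PTU mice 9 to 12 and to 238, 224, 224 and 228 CPM in PTU+TH mice 13 to 16, with overlap through PTU mouse 11 alone. At an unadjusted p under 0.05 stood 2 of the PV, 2 of the SST and 4 of the VIP markers. Of the glial lists, 6 of 6 tested microglia markers (median log2 fold change 0.70), 5 of 6 oligodendrocyte markers (0.63) and 6 of 7 astrocyte markers (0.24) were above 0. None of these glial markers was called by edgeR or DESeq2, and 1 microglia and 1 oligodendrocyte marker had an unadjusted p under 0.05. Their summed levels overlapped between the groups, at 50.5 to 70.1 and 60.7 to 79.1 CPM for microglia and at 89.4 to 108 and 84.8 to 176 CPM for oligodendrocytes. The part of any of these cells in the value of Gabrd was not tested.

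**Figure D1:**
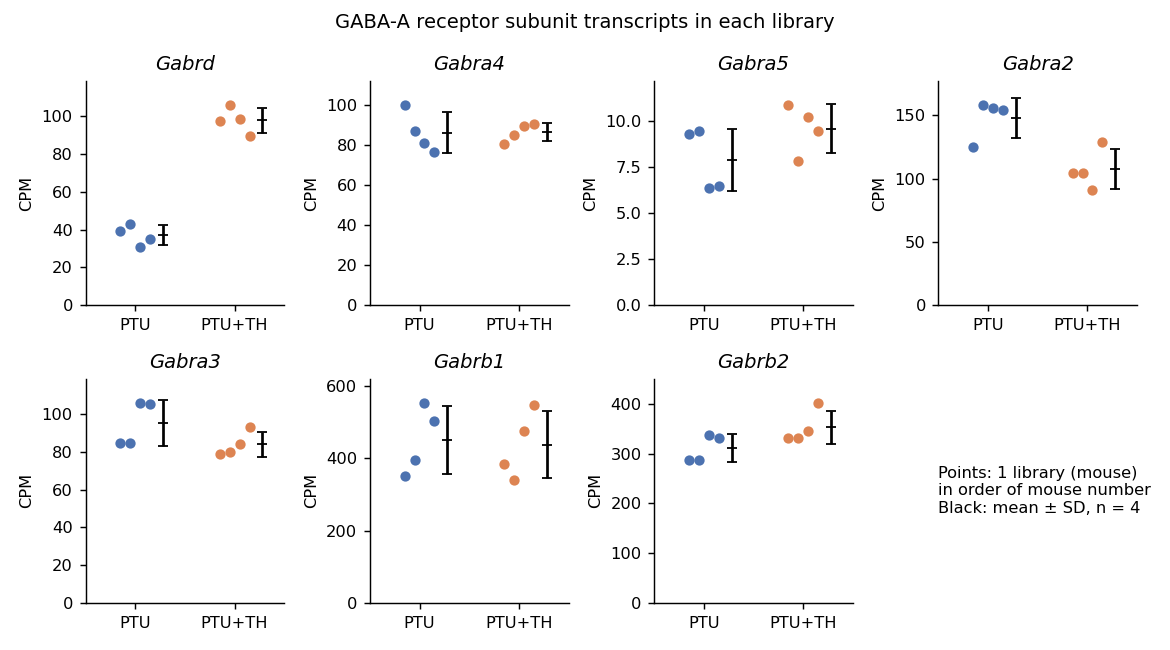
CPM of the 7 subunit genes in each of the 8 libraries, 1 point per mouse in order of mouse number (blue PTU, orange PTU+TH), with mean and SD of 4 libraries in black and each vertical axis starting at 0. The Gabrd points of the groups are apart (31.0 to 43.1 against 89.7 to 106 CPM), while the points of the other 6 genes overlap.

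The alpha subunits found mainly outside synapses, alpha4 and alpha5, were not called. Gabra4 levels were 99.8, 87.0, 80.8 and 76.3 CPM in PTU against 80.4, 84.9, 89.4 and 90.6 CPM in PTU+TH. The PTU+TH values lie inside the PTU range. The fitted log2 fold change was 0.00 (SE 0.10, 95% interval -0.20 to 0.21, edgeR adjusted p = 0.994), so the interval leaves room for a change of up to 1.16-fold but not for one as large as that of Gabrd. Its sign turned under several alternatives.

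Gabra5 had few counts, 129 to 258 per library. It read 9.29, 9.45, 6.38 and 6.47 CPM in PTU against 10.9, 7.84, 10.2 and 9.47 CPM in PTU+TH. PTU mice 11 and 12 were lowest, and PTU mice 9 and 10 lay within the PTU+TH range. The log2 fold change was 0.28 (SE 0.18, 95% interval -0.12 to 0.67, edgeR adjusted p = 0.611), read from the small part of the gene that no other gene shares.

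Of the mainly synaptic alpha subunits, Gabra2 came closest to the threshold. Its values were 125, 158, 156 and 154 CPM in PTU against 105, 105, 91.3 and 129 CPM in PTU+TH. The groups overlap through PTU mouse 9 and PTU+TH mouse 16 alone. The log2 fold change was -0.46 (SE 0.12, 95% interval -0.71 to -0.21), the unadjusted p was 0.00146 and the edgeR adjusted p was 0.06, just short of a call. Without PTU mouse 9 the adjusted p was 0.0147 and without PTU+TH mouse 16 it was 0.0337. Without any 1 of the other libraries it was higher than in the main fit, between 0.125 and 0.194. With DESeq2 it was 0.0128, and over all 19 alternatives it ranged from 0.00557 to 0.194 with 8 under 0.05.

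Gabra3 had 84.6, 84.6, 106 and 106 CPM in PTU against 79.0, 79.9, 84.0 and 93.3 CPM in PTU+TH. PTU mice 11 and 12 stood above the other 6 libraries. The log2 fold change was -0.18 (SE 0.10, 95% interval -0.40 to 0.04, edgeR adjusted p = 0.536). Gabra3 is X-linked, and without mice 15 and 16 the value was -0.26 (adjusted p = 0.643).

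The beta subunits were the members with the highest counts. The Gabrb1 level was 351, 396, 554 and 503 CPM in PTU against 385, 342, 477 and 548 CPM in PTU+TH. Both groups spanned almost the same range (log2 fold change -0.04, SE 0.18, 95% interval -0.43 to 0.34, edgeR adjusted p = 0.967). For Gabrb2 it was 287, 287, 338 and 331 CPM in PTU against 332, 332, 345 and 402 CPM in PTU+TH. PTU mouse 11, at 338 CPM, lay above PTU+TH mice 13 and 14, the only overlap, and the log2 fold change was 0.18 (SE 0.11, 95% interval -0.06 to 0.43, edgeR adjusted p = 0.575). Over the 7 members the median log2 fold change was 0.00, close to that of all genes, with 4 above and 3 below 0.

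**Figure D2:**
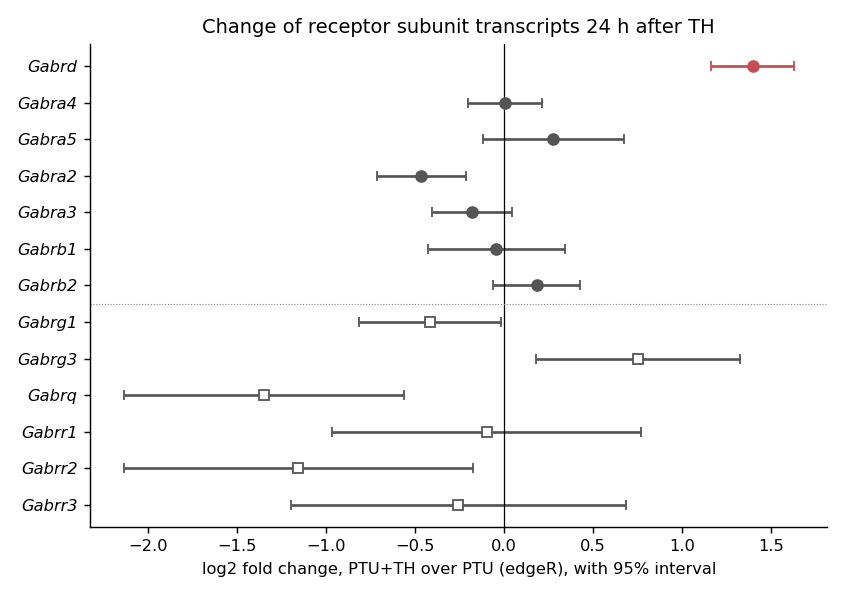
Log2 fold change of PTU+TH over PTU for the 7 members (filled circles, above the dotted line) and 6 further subunit genes (open squares), with 95% intervals from the edgeR fit. The red point is the only one called, Gabrd at 1.40, and the intervals of Gabra2, Gabrg1, Gabrg3, Gabrq and Gabrr2 leave out 0 although these genes did not pass the adjusted threshold.

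The balance between Gabrd and each other subunit was also read within libraries, as a log2 ratio of raw counts that no scaling between libraries can change. The ratio of Gabrd to Gabra2 lay between -2.33 and -1.67 over the PTU libraries and between -0.52 and 0.11 over the PTU+TH libraries, a 3.67-fold shift of the mean and the largest of the 6 ratios. The ratio to Gabra3 shifted 2.99-fold and the ratio to Gabra4, from -1.21 ± 0.18 to 0.18 ± 0.15 (SD, n = 4 each), shifted 2.63-fold. For Gabrb1, Gabrb2 and Gabra5 the shifts were 2.73-fold, 2.34-fold and 2.16-fold. In all 6 ratios the 4 PTU+TH libraries lay above the 4 PTU libraries, so the rise of Gabrd was seen against mainly synaptic, mainly extrasynaptic and shared subunits. These ratios share Gabrd and are a description without a test.

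**Figure D3:**
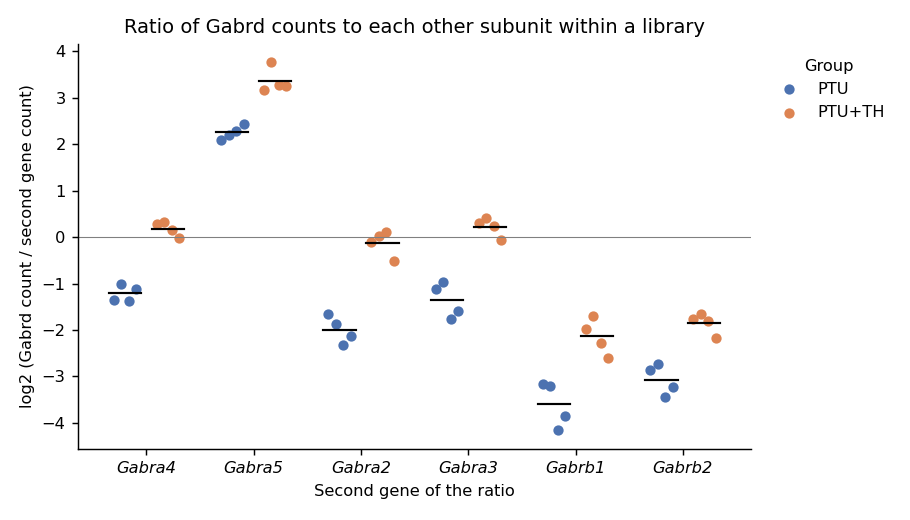
Log2 ratio of Gabrd counts to the counts of each other member in the same library, 1 point per library with the group mean as a bar (blue PTU, orange PTU+TH). Points of the 2 groups do not overlap for any of the 6 genes, and the ratios to Gabra2, Gabra3 and Gabra4 moved from below 0 to about 0.

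Levels were compared between genes per length only, as CPM per kb of the gene body that no other gene shares. On this scale Gabrd was the highest of the 7 in both groups, at 2.83 ± 0.40 in PTU and 7.46 ± 0.51 CPM per kb in PTU+TH (SD, n = 4 each). Gabrb2 followed at 1.48 ± 0.13 and 1.69 ± 0.16. Gabra2, Gabra4, Gabrb1 and Gabra5 lay between 0.810 and 1.07 CPM per kb in PTU, with ranges over mice that overlap from each to the next, and Gabra3 was lowest at 0.431 ± 0.06 and 0.381 ± 0.03. Gabrd made up 33.0% ± 3.72 of the summed level of the 7 in PTU and 56.5% ± 3.84 in PTU+TH (SD, n = 4 each).

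The order depended on the length used. Per kb of exons that no other gene shares, Gabrb2 was highest in both groups (48.8 ± 4.35 and 55.5 ± 5.25), and Gabrd went from the lowest of the 7 at 12.9 ± 1.82 to the second highest at 34.1 ± 2.31 (SD, n = 4 each), about level with Gabrb1 at 31.7 ± 6.72. Its share of the 7 was then 7.45% ± 1.31 in PTU and 17.3% ± 2.30 in PTU+TH. Nuclear RNA holds both spliced and unspliced transcripts, and their parts in these counts were not measured. The mean of Gabrb2 was above those of the alpha subunits and Gabrb1 on both scales.

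**Figure D4:**
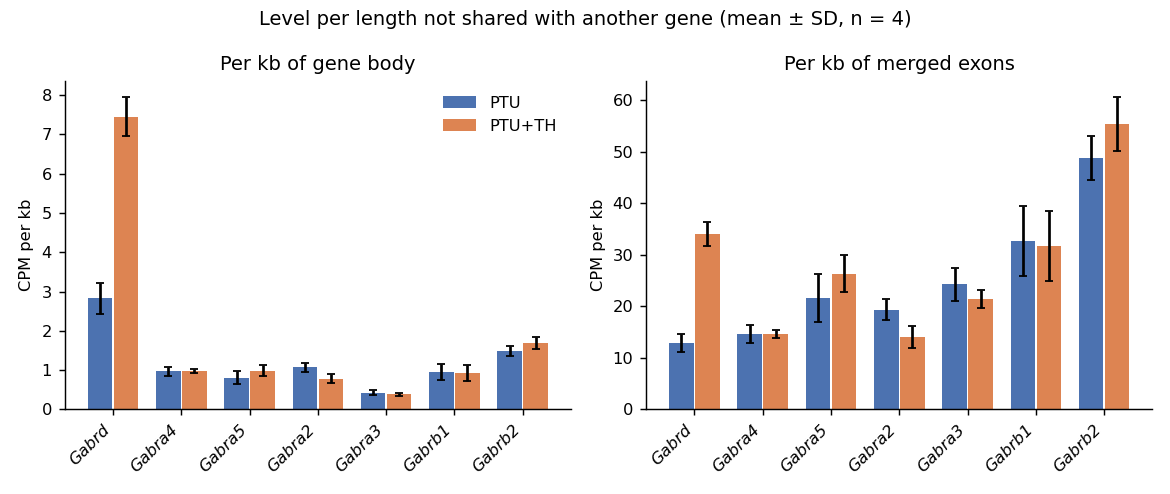
Level of each member as CPM per kb of gene body (left) and per kb of exons (right), both counted without stretches shared with other genes, as mean and SD of 4 libraries (blue PTU, orange PTU+TH). Gabrd is the tallest bar on the left in both groups and moves from 12.9 to 34.1 CPM per kb on the right.

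Within the groups, the members with long gene bodies varied together. After the group means were taken off, Pearson's r over the 8 libraries was 0.92 between Gabrb1 and Gabrb2, 0.91 between Gabra3 and Gabrb1 and 0.96 between Gabra3 and Gabrb2, while Gabrd had r of -0.81, -0.85 and -0.88 with Gabrb1, Gabrb2 and Gabra3. Gabrb1, Gabra3 and Gabrb2 have bodies of 491, 224 and 209 kb. The same split ran through the libraries as a whole: the 969 protein-coding genes over 200 kb had a median deviation from their own mean of -0.36, -0.17, 0.27 and 0.16 (log2 CPM) in PTU mice 9 to 12 and of -0.09, -0.08, 0.06 and 0.23 in PTU+TH mice 13 to 16. The 5523 genes under 20 kb, the class of Gabrd, had 0.14, 0.06, -0.11 and -0.08 in PTU and 0.06, 0.02, 0.03 and -0.06 in PTU+TH. Libraries that were low in long genes were thus the ones low in Gabrb1, Gabrb2 and Gabra3, and this spread runs within both groups.

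The level of long genes differed less between the groups than between libraries. The group means of the deviation of genes over 200 kb were -0.02 in PTU and 0.03 in PTU+TH, and the median log2 fold change was -0.00 for genes under 20 kb and 0.02 for those over 200 kb. Calls were not even over length: 1.41% of the genes under 20 kb were called higher, 91 of the 6081 genes of 20 to 100 kb, 3.58% of those of 100 to 200 kb and 2.17% of those over 200 kb. With the library value for genes over 200 kb as a covariate, an alternative chosen after the values were seen, the log2 fold change of Gabrd was 1.43 (edgeR adjusted p = 2.31e-07), that of Gabra2 was -0.49 (0.00557), and Gabra3, Gabrb2 and Gabrb1 were at -0.21, 0.16 and -0.10 (0.0878, 0.154 and 0.508).

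**Figure D5:**
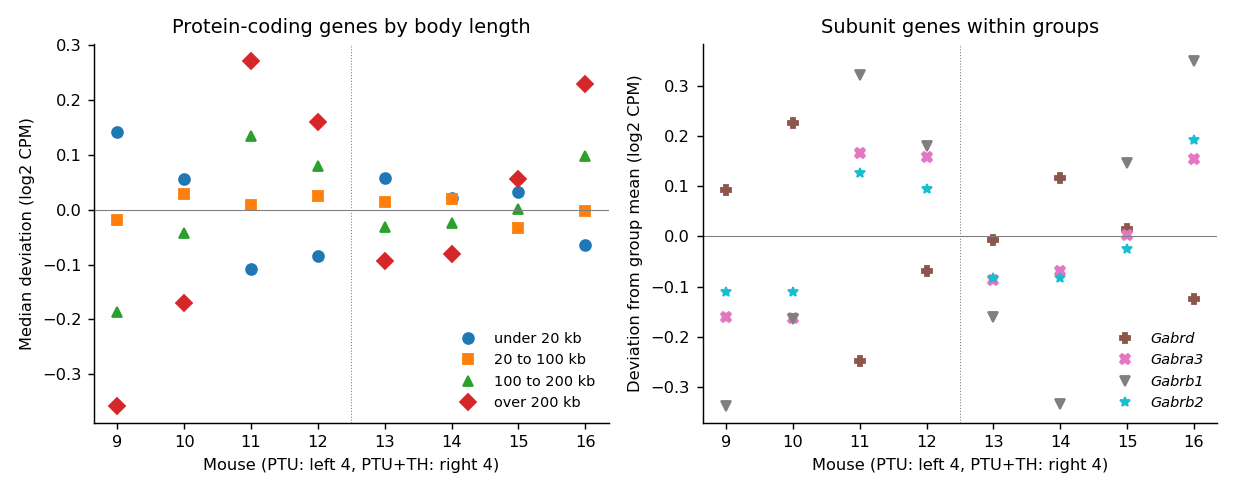
Left: median deviation of protein-coding genes from their mean over the 8 libraries (log2 CPM) by class of body length, for each mouse; right: deviation of 4 members from their group mean (log2 CPM) for each mouse. Genes over 200 kb are lowest in mouse 9 and highest in mouse 11, and Gabrb1, Gabrb2 and Gabra3 follow them within the groups while Gabrd goes the other way.

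Of the 9 further subunit genes listed, 6 were tested and 0 were called by edgeR, while DESeq2 called 1, Gabrq. At an unadjusted p under 0.05 stood 4 of them, Gabrg3 with a log2 fold change above 0 and Gabrg1, Gabrr2 and Gabrq with values below 0. Gabra6, Gabre and Gabrp had too few counts, and Gabrr1, Gabrr2 and Gabrr3 averaged 0.761 to 1.31 CPM. Gabrg3, the gamma3 gene beside Gabra5 on chromosome 7 (56716465 to 57387188), had 533, 660, 1364 and 1124 CPM in PTU against 1389, 1442, 1487 and 1884 CPM in PTU+TH. The groups did not overlap, but PTU mouse 11 lay close to the PTU+TH range, and the log2 fold change of 0.75 (SE 0.27) had an edgeR adjusted p of 0.218. The log2 difference was 1.25 between PTU mice 9 and 10 and PTU+TH mice 13 and 14, and 0.43 between mice 11 and 12 and mice 15 and 16. With these sets of mouse numbers, chosen after the values were seen, as a covariate, Gabrg3 was called (0.84, adjusted p = 0.0161). Its body spans 671 kb, and its lowest values were in PTU mice 9 and 10, where genes over 200 kb were lowest too. The library value of those genes, Gabrg3 among them, was also chosen as a covariate after the values were seen. With it the log2 fold change of Gabrg3 was 0.74 (SE 0.07, edgeR adjusted p = 1.7e-05). These 2 covariates gave the only calls of Gabrg3 among the 19 alternatives.

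Gabrq, the theta subunit gene on the X chromosome, had 6.16, 5.04, 2.52 and 2.67 CPM in PTU against 1.60, 0.859, 1.64 and 2.43 CPM in PTU+TH, again without overlap but with a wide PTU spread (edgeR adjusted p = 0.0857 for a log2 fold change of -1.35, SE 0.36). It passed with DESeq2 (adjusted p = 0.0131) and in edgeR with no filter on low counts (0.042) and with excitatory markers as a covariate (0.0209), and over the 19 alternatives the adjusted p ranged from 0.0131 to 0.243. Over the 6 libraries with Y-linked counts its log2 fold change was -1.75 (edgeR adjusted p = 0.243). The log2 difference was -2.17 between PTU mice 9 and 10 and PTU+TH mice 13 and 14, but -0.37 between mice 11 and 12 and mice 15 and 16. Gabrg1, which lies beside Gabra2 on chromosome 5 and is also expressed in glia, averaged 7.66 ± 1.56 CPM without and 5.77 ± 0.63 CPM with TH (SD, n = 4 each), with an edgeR adjusted p of 0.362. The chromosome 5 neighbours thus had log2 fold changes of -0.41 (Gabrg1), -0.46 (Gabra2), 0.00 (Gabra4) and -0.04 (Gabrb1). None of them was called in the main edgeR fit, while DESeq2 called Gabra2 (adjusted p = 0.0128). Without PTU mouse 9 the value of Gabrg1 was -0.27 and that of Gabra2 was -0.53.

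Genes that act with the receptors were read from lists. Of 23 genes of receptor assembly, transport and anchoring, all tested, 0 were called higher and 1 lower (5 at an unadjusted p under 0.05), with a median log2 fold change of 0.04. The called gene was Hap1, whose protein takes part in returning internalized GABA-A receptors to the surface. Hap1 fell from 260, 256, 223 and 215 CPM in PTU to 153, 146, 139 and 138 CPM in PTU+TH, without overlap. The log2 fold change was -0.72 (SE 0.10, edgeR adjusted p = 0.00154). In the 6 libraries with Y-linked counts it was -0.67 (SE 0.13, edgeR adjusted p = 0.0829) and was not called. Gphn, the gene of the synaptic scaffold gephyrin, was not called (edgeR adjusted p = 0.95, log2 fold change 0.05, SE 0.14), nor was Nsf, a gene of membrane fusion (0.18, SE 0.10, adjusted p = 0.533).

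The GABA side of the system showed no called gene. Of 8 tested genes of GABA synthesis, uptake and breakdown 0 were called by edgeR, DESeq2 or at an unadjusted p under 0.05 (median log2 fold change 0.02). Gad1 and Gad2, the genes of the enzymes that make GABA, had log2 fold changes of -0.16 (SE 0.12) and 0.10 (SE 0.11), with edgeR adjusted p of 0.669 and 0.802. Of 6 GABA-B receptor and KCTD genes 0 were called by edgeR or DESeq2 and 1 had an unadjusted p under 0.05, with 5 values above 0. Gabbr2 averaged 489 ± 78.7 CPM without and 664 ± 103 CPM with TH (SD, n = 4 each), without overlap between the groups (log2 fold change 0.44, edgeR adjusted p = 0.211), and with 330 kb it is also a long gene. Of 4 tested glycine receptor subunit genes, which belong to the same channel superfamily, 0 were called by edgeR or DESeq2 and 2 had an unadjusted p under 0.05 (lowest edgeR adjusted p 0.156, Glra3).

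Of 5 tested neurosteroid genes 1 was called higher and 0 lower by edgeR, against 1.49% and 0.634% of all genes tested. The other 4 had log2 fold changes below 0, the lowest at -0.76. Cyp11a1, whose enzyme makes the first steroid from cholesterol, rose from 6.34, 6.32, 3.91 and 4.90 CPM in PTU to 19.3, 18.0, 21.0 and 20.7 CPM in PTU+TH, without overlap (edgeR adjusted p = 6.66e-05 for a log2 fold change of 1.87, SE 0.17). Star and Srd5a3 were not called (log2 fold changes -0.06 and -0.22, edgeR adjusted p = 0.942 and 0.747), and Srd5a1 was listed at 0. Whether this 0 came from reads dropped in stretches shared with another gene was not tested.

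The genes whose pattern over the 8 libraries was most like that of Gabrd were named by Pearson's r of log2 CPM among the 12953 genes that averaged 1 CPM or more. The first 5 were Vegfa (r = 0.99), Nr3c1 (0.99), Cyp11a1 (0.99), Hirip3 (0.99) and Tet1 (0.98), and all 5 were called higher in PTU+TH, with log2 fold changes from 0.45 (Tet1) to 1.87 (Cyp11a1). This r includes the difference between the 2 groups. With the group means taken off, r for the same genes was 0.81, 0.81, 0.73, 0.89 and 0.56. The 5 genes most like Gabrd within groups were Gpr180, Zfp661, Sirt1, Camkk1 and Cops5, with r from 0.97 to 0.99 over 8 libraries and log2 fold changes between -0.17 and 0.12, none of them called. All these libraries share the length pattern above, and the values are given as a description.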

How the data were processed

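The authors deposited raw counts of reads per gene symbol, 1 file per mouse, from SMART-Seq v4 cDNA and Nextera XT libraries read single-end, per the labels' protocols. Bowtie2 2.5.3 and the builds mm10 and GRCm38 are named, without a role, per the submitters' processing notes. The counting program and the use of strand are not given in the sources used here. All 55341 symbols were in GENCODE M21.

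The receptor genes, lists and tests were chosen with earlier results of these data known. The test was that of edgeR 4.0.16 (R 4.3.3) with filterByExpr, TMM scaling, robust quasi-likelihood fit with the group as the only term, and Benjamini-Hochberg adjustment over 17355 genes. CPM uses TMM library sizes, and log2 CPM a prior count of 2. Named were all members, each called gene of a pathway list and genes among its 3 most abundant (1 is not reported here), and the 5 most alike genes by correlation, with unnamed gene models passed over. Alternatives used DESeq2 1.42.0, limma 3.58.1, other scaling, filters and covariates, and each library left out in turn. The labels do not say whether mice shared a litter, so p-values measure the spread between these libraries. On simulated counts for PTU+TH against PTU with 17355 genes, the test found 80% of 200 altered genes at a log2 fold change of 1.5, 62% at 1 and 27% at 0.58, with 10, 19 and 0 false calls. The altered genes were drawn from all tested genes, so these shares were not measured at the counts of the members. Changes as small as those of Gabra2, Gabra3 and Gabrb2 may still have been missed.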

Additional observations from a re-analysis of the deposited data

Results flagged for a closer look

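The 13 tested subunit genes gave 26 sets of 4 libraries, and 1 set held a library that stood apart from the rest, where chance gives about 1.3 such sets (5%). The set was Gabra2 in PTU, where mouse 9 had 125 CPM and the other PTU mice 154 to 158 CPM, a gap of 0.878 of the range. In the same library the genes over 200 kb had the lowest median deviation, -0.36 (log2 CPM), and its part in the value of Gabra2, whose body is 138 kb, was not tested.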

How the results depend on the processing

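Gabrd was called under all 19 alternatives, with log2 fold changes from 1.32 to 1.48. Gabra3, Gabra5 and Gabrb2 kept their direction and stayed uncalled under all 19, although Gabrb2 (0.18) was at 0.12 without PTU+TH mouse 16 and at 0.10 over the 6 libraries with Y-linked counts. Gabra2 passed with library totals only (-0.48), DESeq2 (-0.47), no filter (-0.46), excitatory markers as a covariate (-0.44), the mouse number sets (-0.46) and the long-gene covariate (-0.49), and lay between -0.56 and -0.39 when libraries were left out. The sign of Gabra4 turned with library totals only (-0.0276), with excitatory markers as a covariate (-0.00795) and over the 6 libraries of mice with Y-linked counts (-0.0562), and it lay between -0.0481 and 0.0891 when libraries were left out; Gabrb1 lay between -0.169 and 0.0715 and was at -0.31 over those 6 libraries. The sets of mouse numbers (9, 10, 13, 14 and 11, 12, 15, 16, which the labels do not call a batch), the long-gene covariate and the whole gene body were chosen after seeing the data. Against 368 genes called, DESeq2 gave 756, the 6 libraries 58 (without mice 15 and 16), the mouse number sets 642, the long-gene covariate 994, and leaving out a library from 182 (PTU+TH mouse 15) to 499 (PTU mouse 9). The share of higher calls, 70.1%, was 89.7% in the 6 libraries and 60.5% with the long-gene covariate. The cause of these differences was not tested. For the 6 libraries, the number of samples and the mice left out cannot be told apart. Mean levels over 8 libraries per kb of gene body became, per kb of exons, 23.5 for Gabrd (from 5.14), 16.7 for Gabra2, 22.8 for Gabra3, 14.6 for Gabra4, 24.0 for Gabra5, 32.2 for Gabrb1 and 52.2 for Gabrb2, and Gabra5 fell from 0.897 to 0.0855 over its whole body, by construction. No ratio of Gabrd to another member moved by more than the spread between libraries when a library was left out. By Spearman's rank correlation 1 of the 5 genes most like Gabrd, and 2 of the 5 within groups, stayed among the first 5. Gabra5 rests on the fewest counts of the 7 (129 to 258 per library), and its SE of 0.18 was about that of Gabrb1. No paired analysis was possible because no mouse number occurs in both groups.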
